A study of Mus musculus with 7 samples.

Results

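The DNA replication genes are 41 genes of the machinery that copies the genome. They were chosen by name and not by a measured value, though with earlier results of these data known. Of the 41 genes 40 were measured, of 30176 genes with a value in all. A gene was measured where a probe set of the array carried its symbol and no other, and each of the 40 had 1 such probe set. Mcm7, a subunit of the replicative helicase, lay on a probe set annotated to several genes and was given no value. The genes were compared between wound macrophages, CD11b+ cells sorted for the macrophage antigen that Adgre1 encodes, of d7 (4 samples, replicates 5, 6, 7 and 8) and of d3 (3 samples, replicates 1, 3 and 4). Both groups came from C57BL/6 mice that carried polyvinyl alcohol (PVA) sponges under the dorsal skin, and they differed in the day of harvest, with no transgene or drug in either. Mice of the work were 8 to 10 weeks old and of both sexes, and the labels give neither for a single sample. CD11b+ cells were taken from the sponges with magnetic beads, so that the model holds cells that had entered an implant, as a mixture and not as single cells. RNA of each sample was hybridized to 1 Affymetrix array of the mouse transcriptome. The samples are labelled as biological replicates, with nothing to say whether each is 1 mouse or a pool. The p-values therefore set the difference between the days against the spread between these samples, which may not be that between single mice.

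DNA replication begins at origins that Cdc6 and Cdt1 load with the MCM2-7 helicase, which Cdc45 and the GINS complex then switch on in S phase. Primase and the polymerases copy the opened strands, the ring-shaped clamp PCNA holds polymerases on the DNA, RPA covers single strands, and FEN1 and ligase I join the pieces of the lagging strand. Transcription of most of these genes rises as a cell enters S phase, under the E2F factors, so their level in a tissue is commonly read as a sign of dividing cells. Macrophages that arise from blood monocytes mostly leave the cell cycle as they mature, whereas resident macrophages of several tissues renew by division in place.

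Levels are log2 probe set values as deposited, and a probe set was called at the array background where its mean lay at or under 5.39, the highest value of an antigenomic control probe. By this measure 29 replication genes lay above the background and 11 did not, against 70.0% of all 65956 probe sets at or under it. Levels of different genes are not set against each other as amounts of RNA, since each probe set has its own brightness. The array medians ran from 4.14 to 4.17 on d7 and from 4.14 to 4.22 on d3, and the median of the positive control probes was 10.01 to 10.09 on every array but d3 replicate 3, where it was 9.78. All 10 macrophage and sort markers, Adgre1 and Itgam (CD11b) among them, lay above the background, whereas all 11 measured markers of T and NK cells and all 7 of fibroblasts did not. The markers of classical monocytes, 5 of 7 measured, had a summed log2 level of 16.17 to 16.58 on d7 and 17.59 to 18.21 on d3. Such a sum adds unlogged values, so its brightest gene weighs most, which for the monocytes was Ly6c2 (log2 difference -2.02). Ccr2, Plac8 and Vcan differed by -1.07, -0.98 and -0.20, and F13a1 went the other way, by 1.07. The markers of neutrophils, 13 of 13, had a summed log2 level of 13.07 to 13.91 on d7 and 13.89 to 14.19 on d3. Of the 13 neutrophil genes 6 were at the background, Mpo and Elane among them, whereas S100a8, S100a9, Csf3r, Cxcr2, Mmp8, Mmp9 and Retnlg lay above it. Retnlg, a resistin-like gene of neutrophils, fell on d7 by 4.85 on the log2 scale (adjusted p = 0.0432 from limma). Csf3r, Mmp8 and Mmp9 also had a lower mean on d7. S100a8, S100a9 and Cxcr2 went the other way, by 0.13, 0.14 and 0.14, with groups that overlapped. Their highest values, 12.06, 10.95 and 8.31, were on d7 replicate 6. Of the macrophage markers the mannose receptor gene Mrc1 rose by 1.42 (adjusted p = 0.0263 from limma). The part of these cells in the results was not tested. In such bulk samples fewer cells in S phase and less RNA per cell cannot be told apart.

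None of the 40 replication genes passed the test between d7 and d3, at a Benjamini-Hochberg adjusted p under 0.05 from limma over all 65956 probe sets, of which 0.117% passed. At an unadjusted p under 0.05 there were 3 of 40, all higher on d7, against 7.66% of all probe sets. These were Pcna, the sliding clamp, Chaf1b, a subunit of a histone chaperone, and Tk1, a thymidine kinase. Among the 29 above the background they were 2, against 17.6% of the 19774 probe sets above it. The methods' t-test gave 2 replication genes at an unadjusted p under 0.05, against 5.87% of the 62202 probe sets that it could test, and none after Benjamini-Hochberg adjustment, against 0.0209%. The d7 and d3 arrays did not overlap for 3 genes, Pcna, Mcm5 and Tk1, all higher on d7. Of those above the background that is 2 of 29, against 14.6% of the probe sets above it.

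The measured differences were small. The mean was higher on d7 for 27 of the 40 genes, lower for 12 and the same for 1, with a median log2 difference (d7 minus d3) of 0.03, against 0.00 for the probe sets above the background. The d7 mean was higher for 67.5% of the replication genes and for 48.3% of those probe sets. For 28 genes the difference was under 0.1 in size, and it reached 0.2 for 3, Pcna, Mcm5 and Gins3, which is 7.5% of the genes against 33.2% of the probe sets above the background. Of these 3 genes Gins3 was at the background. Every 95% confidence interval from limma lay within a 2-fold difference either way, and 38 of 40 lay within 1.5-fold, the exceptions being Pcna and Mcm5. The bounds ran from -0.46 to 0.63 on the log2 scale. For the 11 genes at the background these intervals describe the signal and set no limit on the RNA. Values repeated across arrays, described below, lower the spread behind the intervals, which are then narrower. Where arrays of both days hold the same value, as 6 arrays did for Mcm4, the difference is small as well. How far repeated values account for the small differences was not tested.

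**Figure D1:**
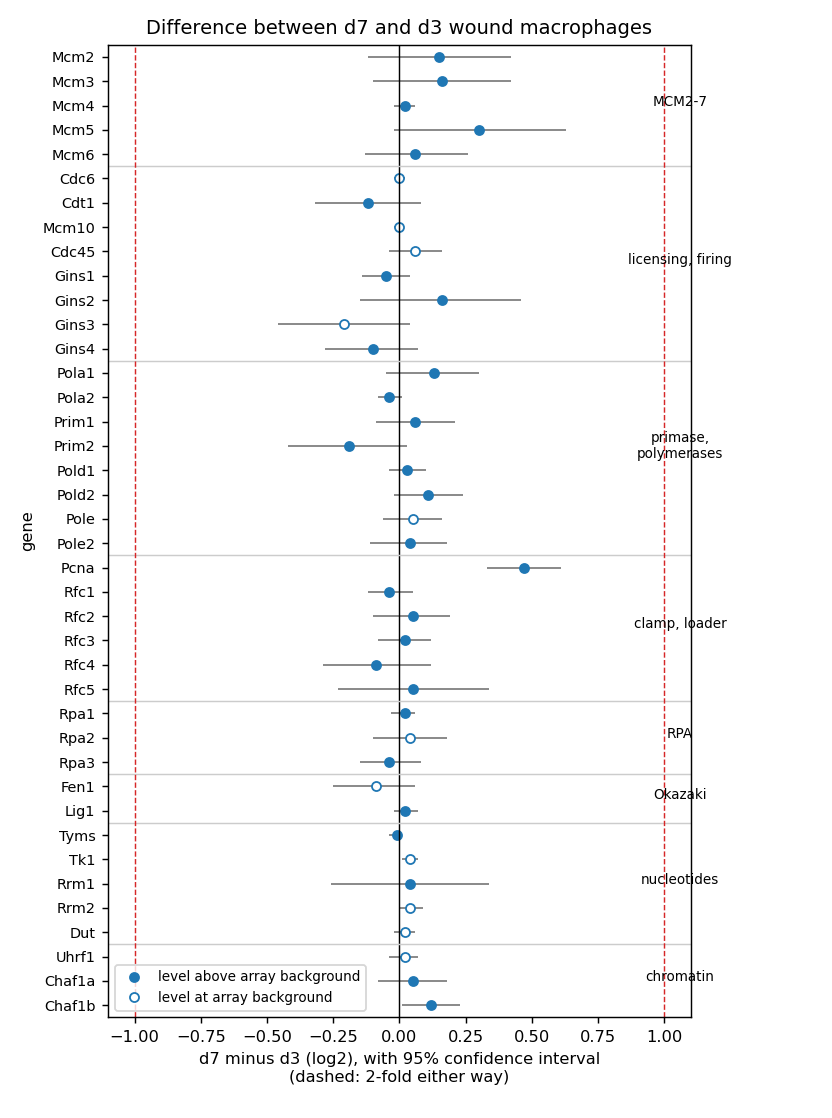
Log2 difference between d7 and d3 wound macrophages (x axis, d7 minus d3) for each of the 40 measured replication genes (y axis, grouped by role). Points are limma estimates and bars 95% confidence intervals, filled points lie above the array background and open points at it, and dashed lines mark a 2-fold difference. Pcna stands farthest to the right at 0.47, and every interval lies between the dashed lines.

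The deposited values repeated across arrays for most of these genes. At least 3 of the 7 arrays held 1 and the same value for 33 of the 40 genes (82.5%), against 46.1% of the probe sets above the background, and at least 5 arrays did for 16 genes (40%, against 16%). The compared sets differ in level, since 11 of the 40 genes lay at the background. Of these, Cdc6, Mcm10, Cdc45, Pole, Rpa2, Fen1, Dut and Uhrf1 were among the 16. Cdc6, the loading factor, had 4.44 on all 7 arrays. Only Pcna, Mcm5 and Tk1 had 7 different values. Why values repeat is not given in the sources used here, and repeated values lower the spread between replicates, whose standard error of the difference had a median of 0.052 for the replication genes and 0.0944 for the probe sets above the background.

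The promoters of 3 members are shown because these genes had the largest measured differences, each with 250 bases before and 50 bases from the annotated start site (RefSeq, GRCm38.p6). They are Pcna (chr2:132253131-132253430, minus strand), Mcm5 (chr8:75109259-75109558, plus strand) and Gins3 (chr8:95633309-95633608, plus strand), a GINS subunit. Capitals mark matches to E2F letters (TTTCCCGC, TTTCGCGC, TTTGCCGC or TTTGGCGC, on either strand) and to the CCAAT letters of factor NF-Y (CCAAT or, on the other strand, ATTGG), and everything else is in lower case.
Pcna: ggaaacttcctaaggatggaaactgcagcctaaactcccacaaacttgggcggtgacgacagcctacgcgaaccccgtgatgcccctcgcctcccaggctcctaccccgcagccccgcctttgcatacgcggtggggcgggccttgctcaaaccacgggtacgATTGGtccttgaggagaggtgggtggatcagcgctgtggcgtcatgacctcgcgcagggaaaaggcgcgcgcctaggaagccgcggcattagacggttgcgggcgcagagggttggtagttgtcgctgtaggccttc
Mcm5: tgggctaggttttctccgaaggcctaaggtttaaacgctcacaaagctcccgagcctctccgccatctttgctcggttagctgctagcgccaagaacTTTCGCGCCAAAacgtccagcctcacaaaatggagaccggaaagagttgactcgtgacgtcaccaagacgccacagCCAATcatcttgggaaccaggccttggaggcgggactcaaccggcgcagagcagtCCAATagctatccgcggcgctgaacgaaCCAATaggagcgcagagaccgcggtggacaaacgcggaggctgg
Gins3: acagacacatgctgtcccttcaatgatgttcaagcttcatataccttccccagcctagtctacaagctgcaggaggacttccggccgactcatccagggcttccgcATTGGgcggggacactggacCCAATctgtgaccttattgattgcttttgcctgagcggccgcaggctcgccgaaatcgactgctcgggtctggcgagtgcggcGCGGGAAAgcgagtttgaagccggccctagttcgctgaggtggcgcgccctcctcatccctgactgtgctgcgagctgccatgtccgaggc
The Pcna window held no E2F letters and 1 ATTGG, which began at base -87 from the start site. In the Mcm5 window TTTCGCGC at -153 and GCGCCAAA at -149 overlapped, and CCAAT stood at -77, -22 and 7. In the Gins3 window GCGGGAAA stood at -41, ATTGG at -144 and CCAAT at -124. A promoter was matched for 34 of the 41 genes, 40 promoters in all. E2F letters were in 13 of these 40 promoters (32.5%), against 744 of 32851 promoters of the same length (2.26%). CCAAT letters were in 23 of 40 (57.5%), against 12289 of 32851 (37.4%). The 12 measured genes with E2F letters had a median log2 difference of 0.03 between d7 and d3, and the 21 without had 0.04. A match of letters is a description of the window and not of binding.

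Of the MCM2-7 helicase, the ring that unwinds DNA at the fork, 5 of 6 subunits were measured, all above the background. The d7 mean was the higher one for all 5, at log2 differences of 0.02 to 0.30 (median 0.15), and none passed the test (adjusted p = 0.649 to 0.748 from limma). Mcm5 had 6.54, 6.42, 6.43 and 6.91 on d7 replicates 5, 6, 7 and 8, against 6.32, 6.26 and 6.24 on d3 replicates 1, 3 and 4. Each d7 array lay above each d3 array, with d7 replicate 8 well above the other d7 arrays. The means were 6.57 ± 0.23 on d7 (SD, n = 4) and 6.27 ± 0.05 on d3 (SD, n = 3), a 1.23-fold difference (log2 difference 0.30, 95% interval -0.02 to 0.63, adjusted p = 0.649 from limma). Without d7 replicate 8 the log2 difference of Mcm5 was 0.19 (adjusted p = 0.64). Mcm3, another subunit of the ring, had 8.09, 8.09, 8.09 and 8.36 on the d7 arrays in the same order, against 8.09, 7.81 and 8.09 on the d3 arrays. The groups shared the level of 8.09, and the log2 difference of 0.16 (interval -0.10 to 0.42, adjusted p = 0.662 from limma) came from d7 replicate 8 and d3 replicate 3. Mcm2, whose tail also binds histones, had 5.62 to 5.63 on d7 replicates 5, 6 and 7 and 5.98 on replicate 8, against 5.44 to 5.62 on d3, and its log2 difference was 0.15 with and 0.06 without that array. Mcm4 differed by 0.02 and Mcm6 by 0.06 on the log2 scale.

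Of the 8 licensing and origin firing factors, 4 lay above the background, and none passed the test (adjusted p from 0.662 to 1 in limma). The mean was higher on d7 for 2, lower for 5 and the same for Cdc6, with log2 differences of -0.21 to 0.16 (median -0.03). Gins3 had 5.08, 4.85, 4.97 and 5.11 on d7 replicates 5 to 8, against 5.40, 5.16 and 5.08 on d3 replicates 1, 3 and 4. The groups overlapped, d3 replicate 1 was the highest array, and the log2 difference was -0.21 (interval -0.46 to 0.04, adjusted p = 0.662 from limma) at a level at the background. Gins4, another subunit of the complex that completes the active helicase, had 9.26, 9.43, 9.43 and 9.43 on d7, against 9.63, 9.43 and 9.42 on d3. Its difference of -0.10 rested on a low d7 replicate 5 and a high d3 replicate 1, with the other arrays at 9.42 to 9.43. Gins2 had 6.17 on d7 replicates 5, 6 and 7 and 6.58 on replicate 8, against 6.00 to 6.20 on d3, so that the 4 GINS subunits did not share a direction, and Gins1 differed by -0.05. Cdt1, which brings the helicase to origins, had 5.27 to 5.49 on d7 and 5.47 to 5.69 on d3 (log2 difference -0.12). Cdc45, which travels with the helicase, differed by 0.06, and Mcm10, which helps to start the fork, had 4.76 on all d7 arrays and 4.76 to 4.78 on d3, both at the background.

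Of the 8 subunits of primase and of the polymerases alpha, delta and epsilon, 7 lay above the background and none passed the test (adjusted p = 0.657 to 0.802 from limma). The mean was higher on d7 for 6 and lower for 2, with log2 differences of -0.19 to 0.13 (median 0.04). Prim2, the large subunit of primase, had 6.78, 6.90, 6.97 and 6.97 on d7 replicates 5 to 8, against 6.97, 7.29 and 7.04 on d3. No d7 array lay above a d3 array, although d7 replicates 7 and 8 and d3 replicate 1 met at 6.97, and the log2 difference was -0.19 (interval -0.42 to 0.03, unadjusted p = 0.08 and adjusted p = 0.662 from limma). Prim1, the catalytic subunit of the same enzyme, had 5.56 on d7 replicates 5, 6 and 7 and 5.77 on replicate 8, against 5.54 to 5.56 on d3. Pola2, the accessory subunit of polymerase alpha, had 8.24, 8.24, 8.24 and 8.20 on d7, against 8.26, 8.24 and 8.30 on d3 (log2 difference -0.04). Pola1, the catalytic subunit, had 6.23 to 6.36 on d7 and 6.00 to 6.23 on d3 (log2 difference 0.13). The accessory subunit of polymerase delta, Pold2, had 7.48 to 7.61 on d7 and 7.32 to 7.48 on d3 (log2 difference 0.11), with d7 replicate 8 highest. The catalytic Pold1 differed by 0.03, and Pole and Pole2, the catalytic and an accessory subunit of polymerase epsilon, by 0.05 and 0.04.

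Pcna showed the largest difference of all 40 genes. Its level was 13.63, 13.76, 13.70 and 13.78 on d7 replicates 5, 6, 7 and 8, against 13.21, 13.18 and 13.36 on d3 replicates 1, 3 and 4. The groups were apart by more than either spread, and no single array stood out. The mean was 13.72 ± 0.07 on d7 (SD, n = 4) and 13.25 ± 0.10 on d3 (SD, n = 3), which is 1.38-fold (95% interval 1.25 to 1.53), and the log2 difference of 0.47 (interval 0.33 to 0.61) had an unadjusted p of 0.000248 and an adjusted p of 0.0966 from limma. It missed the threshold on the values as deposited. After quantile normalization, also over all probe sets, the log2 difference was 0.549 with an adjusted p of 0.0319, and with median centring it was 0.49 with an adjusted p of 0.05. When limma was fitted to the 19774 probe sets above the array background, of which 1.89% passed, the adjusted p was 0.025 for the same difference, and with an array left out in turn over all probe sets the difference was 0.43 to 0.52 with an adjusted p of 0.0975 to 0.326. The array also carries probe sets for pseudogene copies. Pcna-ps2 had 14.52, 14.82, 14.50 and 14.53 on d7, against 13.97, 14.11 and 14.14 on d3, so its groups were apart in the same direction (log2 difference 0.52, interval 0.29 to 0.75, adjusted p = 0.227 from limma). Pcna-ps1 was at the background on both days (4.97 ± 0.02 on d7 and 4.86 ± 0.20 on d3). Whether the probes tell the gene and Pcna-ps2 apart was not tested, so the share of each in the difference of Pcna is uncertain.

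The 5 subunits of replication factor C, which opens the clamp and sets it on DNA, lay above the background with differences of -0.09 to 0.05. Rfc5 had 6.69 on all 4 d7 arrays and 6.85, 6.36 and 6.72 on d3, so its d3 arrays lay on both sides of d7. Rfc4 had 7.08 to 7.35 on d7 and 7.23 to 7.44 on d3 (log2 difference -0.09). Rfc1, the largest subunit, and Rfc2 and Rfc3 differed by -0.04, 0.05 and 0.02.

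**Figure D2:**
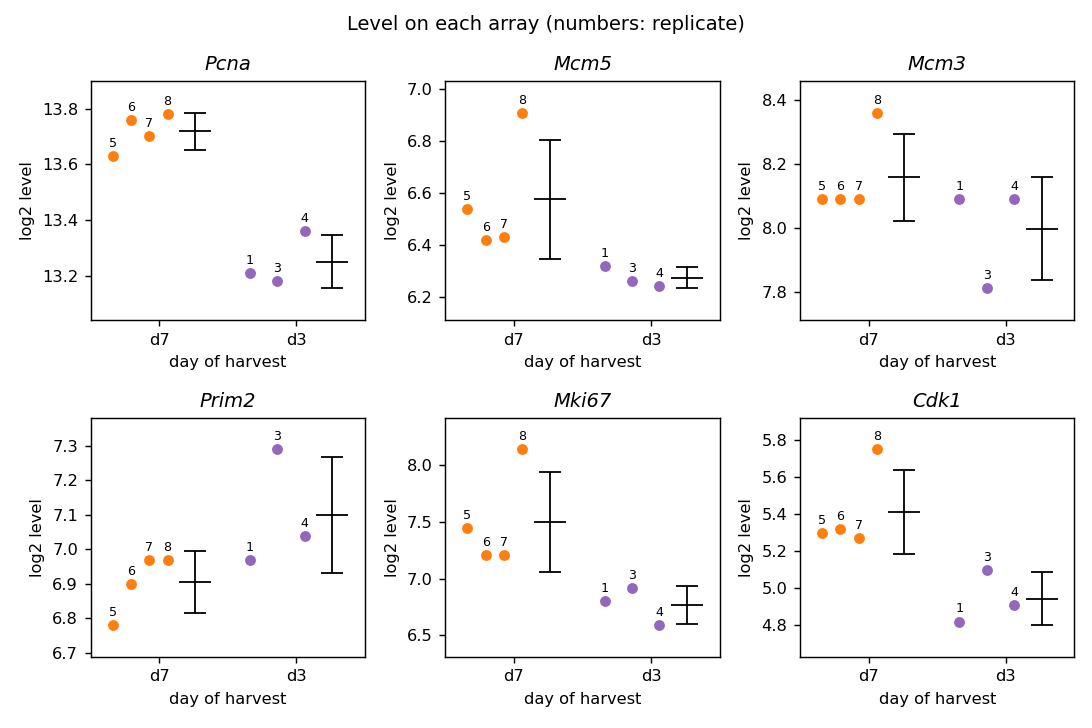
Log2 level (y axis) of Pcna, Mcm5, Mcm3, Prim2, Mki67 and Cdk1 on each array of d7 and d3 wound macrophages (x axis). Points are arrays with their replicate number, and the line and bars beside them are the mean and SD (n = 4 on d7, n = 3 on d3). Pcna is apart on every array (13.63 to 13.78 on d7, 13.18 to 13.36 on d3), whereas d7 replicate 8 stands above the other d7 arrays for Mcm5, Mcm3, Mki67 and Cdk1.

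RPA, the complex that coats single-stranded DNA, differed little between the days. Rpa1, its largest subunit, had 6.69, 6.69, 6.69 and 6.75 on d7, against 6.69 on each d3 array, a log2 difference of 0.02. Rpa2 had 4.91 on every d7 array, against 4.73, 4.91 and 4.97 on d3 (log2 difference 0.04), at the background. Rpa3, the smallest subunit, had 5.93 to 6.11 on d7 and 6.09 on each d3 array (log2 difference -0.04). None of the 3 passed the test (adjusted p = 0.741 to 0.782 from limma).

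Neither of the genes that finish the lagging strand passed. Fen1, the nuclease that trims flaps, had 5.02, 5.02, 4.83 and 5.02 on d7, against 5.02, 5.16 and 5.02 on d3, and it was at the background with a log2 difference of -0.09 (adjusted p = 0.662 from limma). Lig1, the ligase that seals the nicks, had 6.04 on all d7 arrays, against 5.97, 6.04 and 6.04 on d3 (log2 difference 0.02, adjusted p = 0.664 from limma). In both genes 5 or more arrays repeated 1 value.

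Of the 5 genes of nucleotide supply, 2 lay above the background and the differences ran from -0.01 to 0.04. Rrm1, the large subunit of ribonucleotide reductase, had 6.66, 6.92, 6.61 and 6.71 on d7, against 6.66, 6.91 and 6.49 on d3. The groups covered the same range, and the log2 difference was 0.04 (interval -0.26 to 0.34, adjusted p = 0.931 from limma). Rrm2, the small subunit made in S phase, had 4.32, 4.31, 4.31 and 4.31 on d7, against 4.23, 4.25 and 4.31 on d3, under the background on every array. Tk1 had 4.97, 4.95, 4.95 and 4.95 on d7, against 4.91, 4.94 and 4.90 on d3. Its groups did not overlap, yet the difference of 0.04 (interval 0.01 to 0.07, unadjusted p = 0.0215 and adjusted p = 0.642 from limma) was found under the background. Tyms, thymidylate synthase, differed by -0.01 at a level of 6.21 to 6.24 on d7 and 6.24 to 6.26 on d3, and Dut, which removes dUTP, by 0.02 at the background.

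The 3 genes that rebuild chromatin behind the fork had a higher mean on d7. Chaf1b, a subunit of chromatin assembly factor 1, had 5.87, 5.75, 5.75 and 5.85 on d7, against 5.75, 5.67 and 5.64 on d3. The groups met at 5.75, and the log2 difference was 0.12 (interval 0.01 to 0.23, unadjusted p = 0.0394 and adjusted p = 0.647 from limma). Chaf1a, the large subunit of the same factor, differed by 0.05, and Uhrf1, which reads half-methylated DNA for the methyltransferase DNMT1, by 0.02 at the background.

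**Figure D3:**
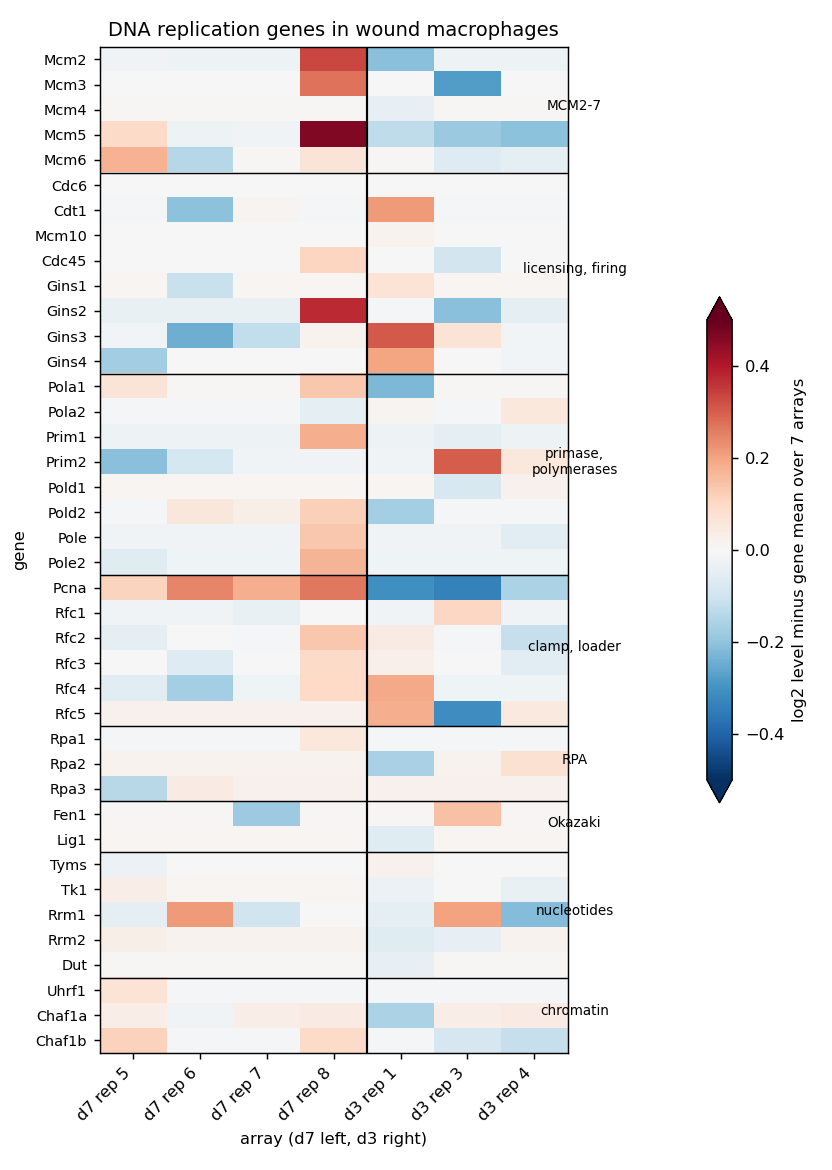
Deviation of each replication gene from its own mean over the 7 arrays (colour, log2) for the d7 arrays (left of the black line) and the d3 arrays (right), with genes in rows by role. The column of d7 replicate 8 holds the strongest red cells, those of Mcm5, Gins2 and Mcm2. Gins3 on d3 replicate 1 and Prim2 on d3 replicate 3 are also red. Pcna is red on all d7 arrays and blue on all d3 arrays.

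The array on which a gene was highest was not spread evenly. Of the 40 genes, 15 (37.5%) had their single highest value on d7 replicate 8, an array that was highest for 11.6% of the probe sets above the background. Of the 29 genes above the background they were 13. The other d7 arrays, replicates 5, 6 and 7, were highest for 5, 2 and 0 genes, the d3 arrays, replicates 1, 3 and 4, for 8, 3 and 3, and 4 genes shared their highest value between arrays. On d7 replicate 8, 32 of the 40 genes lay above their own mean, with an average deviation of 0.081 on the log2 scale. On the other 6 arrays 15 to 18 did, and the average was between -0.024 and -0.003. The probe sets above the background averaged -0.023 on d7 replicate 8, below most other arrays, so the shift of the replication genes there was not shared by them. By role the average deviation on that array was 0.23 for the MCM subunits, 0.10 for the clamp and its loader, 0.09 for primase and polymerases, 0.06 for licensing and firing factors, and 0.01 to 0.04 for the rest. No test was made of this pattern, which was seen in the same values. Without d7 replicate 8 the median log2 difference of the 40 genes was 0.019, against 0.032 with it, and 24 genes had a higher mean on d7, against 27. Without d3 replicate 1 they were 22, with a median of 0.022, so that more than 1 array bore on the count. Pcna differed by 0.448 without d7 replicate 8. On that array the summed log2 levels of macrophage markers (20.44), classical monocyte markers (16.32) and neutrophil markers (13.12) lay within the range of the other d7 arrays. Those of fibroblast markers (7.10, against 7.04 to 7.05) and of B and plasma cell markers (7.26, against 7.13 to 7.14) lay just above it, with all 7 and 5 of 6 genes at the background, as did those of mast cells, basophils and eosinophils (7.16, against 7.12 to 7.14), with 7 of 8 genes there. Endothelial markers (8.10, against 8.14 to 8.20) lay below it, with 4 of 6 genes at the background. Their part in the deviation was not tested.

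**Figure D4:**
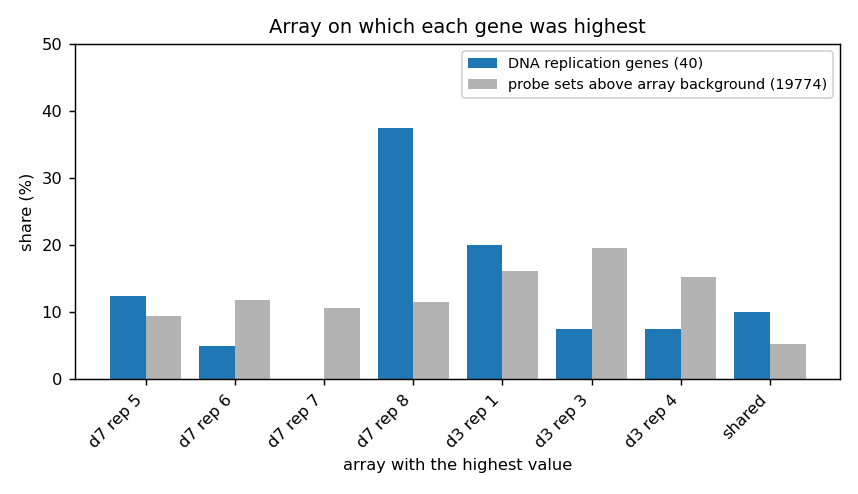
Share (y axis, percent) of the 40 replication genes (blue) and of the 19774 probe sets above the array background (grey) that had their single highest value on each array (x axis, d7 left and d3 right, ties under shared). The blue bar of d7 replicate 8 reaches 37.5%, against a grey bar of 11.6%.

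Other genes of replication and of the cell cycle were taken from 7 lists, 91 genes in all. Of these 87 were measured, and 30 had a mean at or under the background on both days. None passed the test in limma. At an unadjusted p under 0.05, 6 were higher and 2 lower on d7, where 7.66% of all probe sets and 17.6% of those above the background reached that p in either direction. In the origin recognition complex, which marks origins, the largest differences were those of Orc2 (-0.17) and Orc6 (-0.12), and among firing kinases and regulators those of Wdhd1, a fork protein (0.18), and Gmnn, the inhibitor of Cdt1 (0.13). Among other fork subunits Tipin, of the fork protection complex, differed by 0.21 and the nuclease Dna2 by -0.13.

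Samhd1, an enzyme that breaks down the nucleotides DNA is made from, had 15.14, 15.28, 15.17 and 15.13 on d7, against 15.80, 15.43 and 15.63 on d3. The groups did not overlap, and the log2 difference was -0.44 (adjusted p = 0.325 from limma), while Dck, which salvages deoxynucleosides, differed by -0.24. Pclaf, which encodes a partner of PCNA, had 5.56 to 5.70 on d7 and 5.34 to 5.51 on d3, with a log2 difference of 0.22 (adjusted p = 0.383 from limma), and it was named after its value was seen.

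Of the E2F and Rb family and the G1/S cyclins, Ccnd2, cyclin D2, had 7.39, 7.18, 6.98 and 7.18 on d7, against 8.55, 8.52 and 7.62 on d3. All d7 arrays lay below the d3 arrays, by a log2 difference of -1.05 (interval -1.68 to -0.41, adjusted p = 0.432 from limma). Ccna2, the S-phase cyclin A2, had 5.73 to 5.97 on d7 and 5.43 to 5.73 on d3 (log2 difference 0.25, adjusted p = 0.647 from limma). Among cell cycle inhibitors Cdkn1a, p21, differed by 0.23 and Cdkn1b, p27, by 0.06.

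Of 19 measured mitosis genes 12 had a mean at or under the background on both days. Cdk1, Top2a and Ube2c exceeded it on d7 only. Of the 19 genes, 4 were higher on d7 at an unadjusted p under 0.05 from limma, Cdk1 among them. That p was reached by 7.66% of all probe sets and by 17.6% of those above the background, in either direction. The lowest p of the list was that of Plk1, a mitotic kinase, which had 5.44, 5.37, 5.36 and 5.31 on d7, against 5.04, 5.21 and 5.00 on d3 (log2 difference 0.29, unadjusted p = 0.0032 and adjusted p = 0.295 from limma). Its groups did not overlap, its level was at the background, and d7 replicate 8 was its lowest d7 array. Mki67, which encodes the proliferation antigen Ki-67, had 7.45, 7.21, 7.21 and 8.14 on d7, against 6.80, 6.92 and 6.59 on d3. Cdk1, the kinase that drives mitosis, had 5.30, 5.32, 5.27 and 5.75 on d7, against 4.82, 5.10 and 4.91 on d3, near the background. The groups did not overlap for either gene. D7 replicate 8 was the highest array for both, as it was for the helicase genes Mcm2, Mcm3 and Mcm5. The log2 differences were 0.73 for Mki67 (interval 0.10 to 1.37, adjusted p = 0.647 from limma) and 0.47 for Cdk1 (interval 0.12 to 0.82, adjusted p = 0.623 from limma). Without that array they were 0.52 (adjusted p = 0.612) and 0.36 (adjusted p = 0.591).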

How the data were processed

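RNA of sorted CD11b+ wound macrophages (4 d7 and 3 d3 samples, 1 array each) was amplified, biotinylated and hybridized by the authors. The deposited table holds log2 probe set levels made by the authors, whose submission names the program Affymetrix Expression Console without a version and whose methods name Genespring GX and dChip for later steps. The scale was read from the values. The normalization between arrays, the genome build of the probe sets and the reason why values repeat across arrays are not given in the sources used here.

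From 72688 probe sets, 6732 array controls were left out, which kept 65956, of which 30638 had 1 gene symbol in the platform annotation, 2176 several and 33142 none listed. A gene was represented by its probe set of 1 symbol with the highest mean over all arrays. The difference d7 minus d3 was tested with a two-sided limma model without covariates (version 3.58.1, R 4.3.3, moderated by eBayes) and adjusted by Benjamini-Hochberg over all 65956 probe sets, with a threshold of 0.05. The test was tried on simulated data. The methods' t-test is the Student test of both groups on the same values. A list's summed level is the log2 of the sum of its genes' unlogged values. Tables and plots were made with Python 3.11.15 (pandas 2.3.3, numpy 2.4.6, matplotlib 3.10.9). Promoter windows were read from RefSeq (GRCm38.p6), and Gins1, Gins2, Gins4, Mcm4, Pole, Prim2 and Rfc2 were not matched.

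By the rule for named genes, values on every array are given, in each role group, for the replication gene with the largest difference and the one with the highest mean, since none passed the test. Of each other list of replication and the cell cycle the 2 genes with the largest differences are named, some by their difference alone. Tk1, Plk1, Pclaf, the pseudogenes, Retnlg, Mrc1, other single cell type markers and a few further members were added after their values were seen. The members and lists were chosen with earlier results of these data known. The alternatives tried were robust eBayes, a mean-variance trend, quantile normalization, median centring, filters at the median level and at the array background, 1 probe set per gene, the mean of a gene's probe sets, array weights, the methods' t-test, an adjusted p under 0.01 and leaving out 1 array at a time. A restriction to probe sets with 7 different values was added after seeing the data. The number of arrays limits the precision.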

Additional observations from a re-analysis of the deposited data

Results flagged for a closer look

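For 17 replication genes 1 d7 array lay far from the other 3, with a gap beyond Dixon's 95% limit for a group of 4 samples. Chance alone gives such a value in about 1 of 20 groups when values are continuous, whereas here the other 3 d7 arrays were identical for 12 of the 17, which makes any gap the whole range. D7 replicate 8 was the high array for 7 of the genes. These were Mcm2 (5.98), Mcm3 (8.36) and Gins2 (6.58), of the helicase, Prim1 (5.77) of primase, Rpa1 (6.75) of RPA, and Cdc45 (5.39) and Pole (4.82), both at the array background. It was the low array for Pola2 (8.20).

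D7 replicate 5 was low for Gins4 (9.26), Pold1 (6.01), Rpa3 (5.93) and Tyms (6.21), and high for Rrm2 (4.32) and Uhrf1 (5.36), both at the background. D7 replicate 6 was low for Cdt1 (5.27) and Gins1 (6.32), and d7 replicate 7 was low for Fen1 (4.83). For Pold1, Rrm2 and Tyms the gap itself was a few hundredths or less. Among the other genes of replication and the cell cycle, d7 replicate 8 was high for Wdhd1 (6.68) and Cdk1 (5.75), d7 replicate 7 was high for Cdkn1a (15.99) and low for Dna2 (5.26), and the low arrays of Orc2 (8.10) and Orc6 (7.05) were d7 replicates 6 and 5. D3 has 3 samples and was not examined this way.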

How the results depend on the processing

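No paired analysis was possible because the d7 and d3 samples share no replicate number. None of the 40 genes passed in limma over all probe sets with the values as deposited. Pcna was the 1 gene that passed in 4 other fits, with an adjusted p of 0.0319 after quantile normalization, 0.0435 when probe sets under the median level were left out, 0.025 when those at the array background were, and 0.0246 when 7 different values were asked for, which kept 3 of the 40 genes. The methods' t-test gave 2 at an unadjusted p under 0.05. With an array left out in turn the count stayed at 0. The adjusted p of Pcna was 0.0246 to 0.215 with all arrays kept and 0.0975 to 0.326 with an array left out.

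The probe sets that passed numbered 77, against 169 after quantile normalization, 223 with median centring, 208 without probe sets under the median level, 374 without those at the array background, 824 where all 7 values differed, 13 by the methods' t-test after Benjamini-Hochberg adjustment, 3652 by that test unadjusted, and 6 at an adjusted p under 0.01. With an array left out they numbered 1 (without d7 replicate 8) to 212 (without d3 replicate 1). The cause was not tested. The median log2 difference of the 40 genes was 0.032, against 0.053 with median centring and 0.019 (without d7 replicate 8) to 0.033 with an array left out. The number with a higher mean on d7 was 27, 30 with median centring and 22 (without d3 replicate 1) to 27 with an array left out. Of 264 values for the 14 genes named by the rule, 3 turned round, 1 of Rpa2 (-0.03 without d3 replicate 1, up to 0.089 without d3 replicate 4) and 2 of Rrm1 (-0.058 without d3 replicate 4 and -0.026 without d7 replicate 6, up to 0.149 without d3 replicate 3).

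Signal over background limits 11 of the 40 genes, whose signal sets no limit on a difference in RNA. Repeated values limit the estimates of the difference and of the spread for most others.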
